A study of Mus musculus with 2 samples.

Results

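The miR-465 group of the mouse comprises miR-465a, miR-465b, miR-465c and miR-465d, each of which gives a miRNA from the 5′ arm (5p) and from the 3′ arm (3p) of its hairpin. All rows of the count tables that carry these names were taken, which were 8 of the 1905 mature miRNAs, and all 8 had reads in both libraries. The data are sncRNA-Seq reads from testes of C57BL/6 mice (C57BL/6J in the methods) at postnatal day 60. The exposed animals received a mixture of EDCs (endocrine-disrupting chemicals) in the drinking water, namely the phthalates DEHP, DBP and BBP at 0.3 mg/kg-BW/day each and the alkylphenols NP and OP at 0.05 mg/kg-BW/day each. Control animals received the vehicles alone, ethanol at about 0.06 and DMSO at about 0.25 g/kg-BW/day as estimated in the methods. In both groups, administration began in the pregnant mother at post-coital day 0.5 and was continued in the sons up to postnatal day 60. Each group gave 1 library, made from testis RNA pooled in equal amounts (n = 3, counted by treated mother), so that no difference below has a replicate check and the spread between animals is hidden in the pools.

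A miRNA is cut from a hairpin precursor by Drosha and Dicer, after which usually 1 strand of the resulting duplex is kept in an Argonaute protein and the other is degraded. Bases 2 to 8 of the kept strand, the seed, do most of the pairing with target mRNAs. The miR-465 group belongs to a set of X-linked miRNAs between Slitrk2 and Fmr1 that are known from male germ cells of rodents, and which have multiplied there by tandem duplication.

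The group consisted of 6 hairpins on chromosome X of GRCm38 (mm10), all on the minus strand. In the direction of the genome they were Mir465d (chrX:66822656-66822713), Mir465c-1 (chrX:66825955-66826035), Mir465b-1 (chrX:66829202-66829280), Mir465c-2 (chrX:66832517-66832597), Mir465b-2 (chrX:66835764-66835842) and Mir465 (chrX:66839052-66839125), the last of which gives miR-465a. Together they covered 16470 bases, with starts spaced evenly at 3247 to 3315 bases. None of them overlapped another gene of GENCODE M21, so that all 6 are intergenic in that annotation. The next hairpin downstream was Mir470, which starts 8705 bases away from Mir465d, and on the other side the next one in RefSeq was Mir201 (chrX:67988096-67988161).

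**Figure D1:**
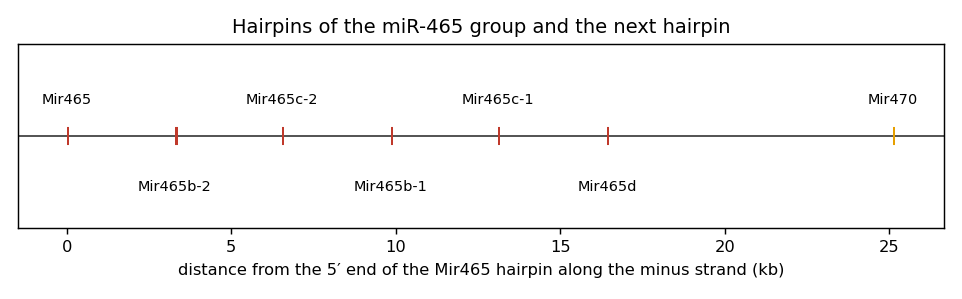
Position of the 6 miR-465 hairpins (red) and of the next hairpin, Mir470 (orange), as the distance in kb from the 5′ end of the Mir465 hairpin along the minus strand. The 6 hairpins follow each other at 3247 to 3315 bases, in the order a, b, c, b, c, d.

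The mature sequences are shown because they decide which copies a read can tell apart. They were taken from RefSeq (GRCm38.p6), where all 8 names were found, and are written 5′ to 3′ with the seed in capitals.
miR-465a-5p: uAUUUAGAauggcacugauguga
miR-465b-5p: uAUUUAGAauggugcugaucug
miR-465c-5p: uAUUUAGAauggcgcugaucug
miR-465d-5p: uAUUUAGAaugguacugauguga
miR-465a-3p: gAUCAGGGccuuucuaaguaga
miR-465b-3p: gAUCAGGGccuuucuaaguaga
miR-465c-3p: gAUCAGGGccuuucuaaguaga
miR-465d-3p: uGAUCAGGgccuuucugaguaa
All 5p miRNAs of the group carry the same seed, and no other mature mouse miRNA of the RefSeq table has it. Counted from the 5′ end, miR-465b-5p differs from miR-465a-5p by C13U, A14G and G20C. Between miR-465b-5p and miR-465c-5p the only substitution is U13C, and miR-465d-5p differs from miR-465a-5p by C13U alone. The 3p miRNAs of miR-465a, miR-465b and miR-465c are identical over all 22 bases. miR-465d-3p starts 1 base earlier, which shifts its seed, and beyond that shift it differs from the others by A16G and G21A, counted on miR-465a-3p.

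The hairpins are shown with both arms in capitals, since they hold the bases beside the arms that could still place a read.
Mir465: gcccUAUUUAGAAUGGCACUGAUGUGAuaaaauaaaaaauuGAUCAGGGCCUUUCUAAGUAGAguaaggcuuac
Mir465b-1: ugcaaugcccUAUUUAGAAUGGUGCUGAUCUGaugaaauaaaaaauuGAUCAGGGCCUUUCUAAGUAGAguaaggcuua
Mir465c-1: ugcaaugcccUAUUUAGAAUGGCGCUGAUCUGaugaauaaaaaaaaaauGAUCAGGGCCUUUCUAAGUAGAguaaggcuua
Mir465d: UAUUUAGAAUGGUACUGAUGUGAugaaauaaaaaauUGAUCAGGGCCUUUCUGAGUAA
The hairpins of Mir465b-1 and Mir465b-2 are identical, and so are those of Mir465c-1 and Mir465c-2. The 3p sequence shared by miR-465a, miR-465b and miR-465c occurs in 5 hairpins of the RefSeq table, all of this group, and in each of them it is followed by the same bases. The mature 3p sequence therefore does not tell these 5 hairpins apart, although a read that starts earlier could, since the bases before the arm differ between Mir465c-1 and the hairpins of miR-465a and miR-465b, whereas a 5p read can be assigned to a, b, c or d by positions 13, 14 and 20.

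The counts of all mature miRNAs summed to 501539 reads in the exposed library and 550261 in the control library. They were divided by DESeq size factors (0.937 for exposed and 1.07 for control mice), and each log2 ratio, exposed over control mice, has an exact Clopper-Pearson interval (95%) that covers the counting error of reads only. Reads were compared by exact binomial tests (2-sided), with Benjamini-Hochberg adjustment for the 484 miRNAs that reached 10 reads in the sum of the libraries. A row counts as called when its adjusted p is below 0.05 and its log2 ratio is 0.5 or more in size, and "at any size" drops the second condition. These tests compare 2 libraries and not the conditions behind them. In whole testis, fewer cells of a type and less RNA per cell cannot be told apart.

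The 5p arm of the group was higher and the 3p arm was lower in exposed mice. The 5p rows together had 18996 reads in exposed mice and 18196 in control mice, a log2 ratio of 0.25 (0.22 to 0.28), or 1.19-fold. The 3p rows together had 4399 reads in exposed mice and 6646 in control mice, a log2 ratio of −0.41 (−0.46 to −0.35), or 0.753-fold. With both arms added, the group took 4.66% of the mature miRNA reads in exposed mice (4.61 to 4.72) and 4.51% in control mice (4.46 to 4.57), a log2 ratio of 0.10 (0.07 to 0.13). A sum over the whole group thus hides arms that went apart.

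Among the 5p miRNAs, miR-465c-5p was the most abundant. mmu-miR-465c-5p had 9281 reads in exposed mice and 8860 in control mice, which is 1.85% and 1.61% of the reads and rank 16 and 18 among all mature miRNAs. Its log2 ratio was 0.25 (0.21 to 0.30), and the exact binomial test gave an adjusted p of 1.33e-30. mmu-miR-465b-5p had 6748 reads in exposed mice and 6090 in control mice, a log2 ratio of 0.33 (0.28 to 0.38, exact test, adjusted p = 1.34e-37). These were the only members higher at any size, and neither reached the size minimum. mmu-miR-465a-5p had 2961 reads in exposed mice and 3239 in control mice, a log2 ratio of 0.06 whose interval (−0.02 to 0.13) includes 0. mmu-miR-465d-5p had 6 reads in exposed mice and 7 in control mice, too few for a difference to be detectable at this depth (−0.04, −1.88 to 1.76).

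**Figure D2:**
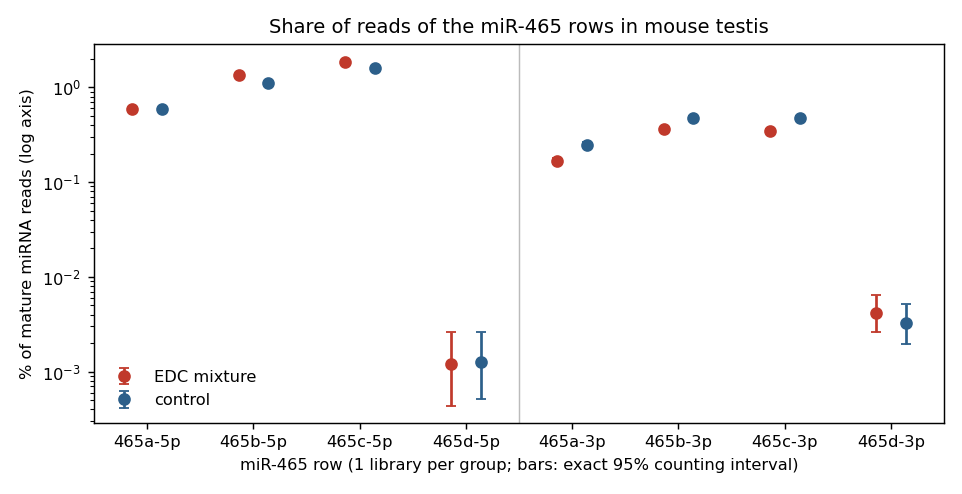
Share of all mature miRNA reads (in %, log axis) taken by each miR-465 row in the library of exposed mice (red) and of control mice (blue), with exact 95% counting intervals. miR-465c-5p leads with 1.85% in exposed and 1.61% in control mice, while both rows of miR-465d lie below 0.01%.

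The 3p rows of miR-465a, miR-465b and miR-465c were all lower in exposed mice. mmu-miR-465c-3p had 1735 reads in exposed mice and 2635 in control mice (−0.42, −0.50 to −0.33, exact test, adjusted p = 1.21e-19). mmu-miR-465b-3p had 1802 reads in exposed mice and 2625 in control mice (−0.36, −0.44 to −0.27, exact test, adjusted p = 9.23e-15). Both were lower at any size and stayed under the size minimum. mmu-miR-465a-3p had 841 reads in exposed mice and 1368 in control mice (−0.52, −0.64 to −0.39, exact test, adjusted p = 3.64e-15), and it was the single member that passed the size minimum. Its sequence is that of the other 2 rows, so its value cannot be told apart from the placement of shared reads. Compared directly, the log2 ratio of miR-465b-3p was 0.16 above that of miR-465a-3p (0.01 to 0.31), and that of miR-465c-3p was 0.10 above it (−0.05 to 0.25). With scaling by TMM its log2 ratio was −0.49 and the call was lost. mmu-miR-465d-3p, which has a sequence of its own, had 21 reads in exposed mice and 18 in control mice (0.41, −0.57 to 1.40), an interval too wide to place it with or apart from the other 3p rows.

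**Figure D3:**
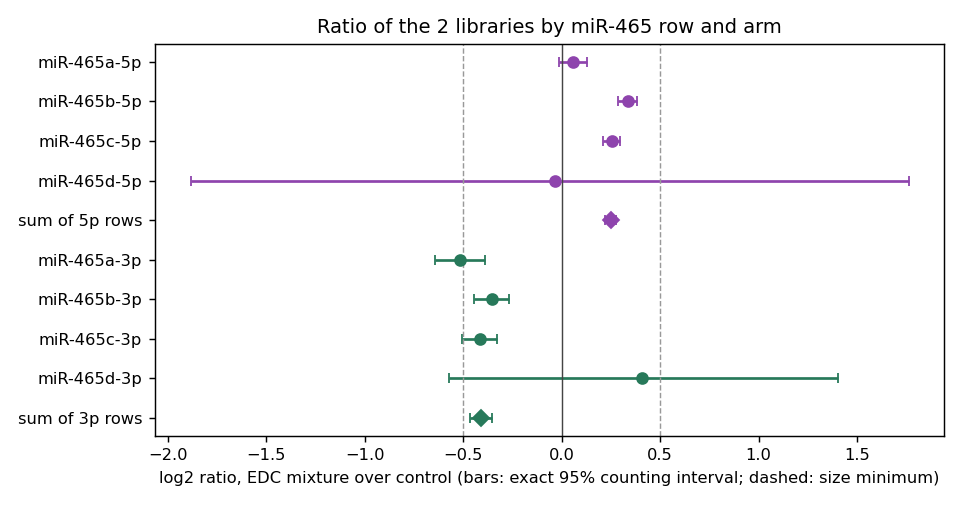
Log2 ratio of exposed over control mice for each miR-465 row (circles) and for the sum of each arm (diamonds), with exact 95% counting intervals; dashed lines mark the size minimum of 0.5. The 5p sum lies at 0.25 and the 3p sum at −0.41, and the intervals of the miR-465d rows span both.

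Counted over the group, 0 of 8 members were called higher and 1 was called lower, whereas 0.620% of all 484 tested miRNAs were called higher (3) and 2.27% lower (11). At any size, 2 of the 8 members were higher and 3 lower, beside 8.26% higher and 9.30% lower among all tested. The 3 lower members are 1 sequence split over 3 rows and count as 1 observation. The median log2 ratio was 0.01 over the 8 members and −0.04 over all tested miRNAs. When a dispersion was estimated from both libraries taken as 1 group, edgeR's exact test called 0 of 484 miRNAs at an adjusted p below 0.05. At an unadjusted p below 0.05 it gave 4, and no member was among them (miR-465a-3p had an unadjusted p of 0.0794). The dispersion used there contains the difference between the groups itself, so few calls could arise. No conclusion is drawn from their absence.

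The balance of the arms can be read within each library and does not depend on the scaling. Of the miR-465 reads, 81.2% came from the 5p arm in exposed mice (80.7 to 81.7) and 73.2% in control mice (72.7 to 73.8), and these intervals do not overlap. There were 4.32 5p reads for each 3p read in exposed mice and 2.74 in control mice. Expressed as the log2 ratio of the 5p arm minus that of the 3p arm, the arms were 0.66 apart (0.59 to 0.72). For miR-465a the difference was 0.57 (0.43 to 0.72), for miR-465b 0.69 (0.59 to 0.79) and for miR-465c 0.67 (0.57 to 0.77). Since the 3p reads of these copies have 1 sequence, the values per copy also rest on how those reads were placed among the 3p rows. In miR-465d the 3p row had more reads than the 5p row in both libraries, with a 5p share of 22.2% in exposed mice (8.62 to 42.3) and 28.0% in control mice (12.1 to 49.4).

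Arms that move apart were not particular to this group. Among 80 miRNA names with 50 reads or more in each arm (both libraries added), 25.0% had arms 0.5 or more apart in either direction, the miR-465 names included. Many of these had few reads. Of the 77 names outside the group, 9 lay as far apart as the miR-465 sums or farther, in either direction. Of the 10 names outside the group with 1000 reads or more in each arm, 1 was among these 9, namely miR-34b, of a miRNA family active in germ cell maturation, at 0.67 (0.58 to 0.76). miR-743a, at 0.69 (0.50 to 0.88), came just short of this depth with 531 5p reads in exposed mice and 455 in control mice. Of the 77 names, 41 had the higher ratio in the 5p arm and 36 in the 3p arm. Of the 17 among them that lay 0.5 or more apart, 4 had the whole interval on the 5p side, that of miR-465. In 6 the whole interval lay on the 3p side, and in the rest it covered both sides.

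**Figure D4:**
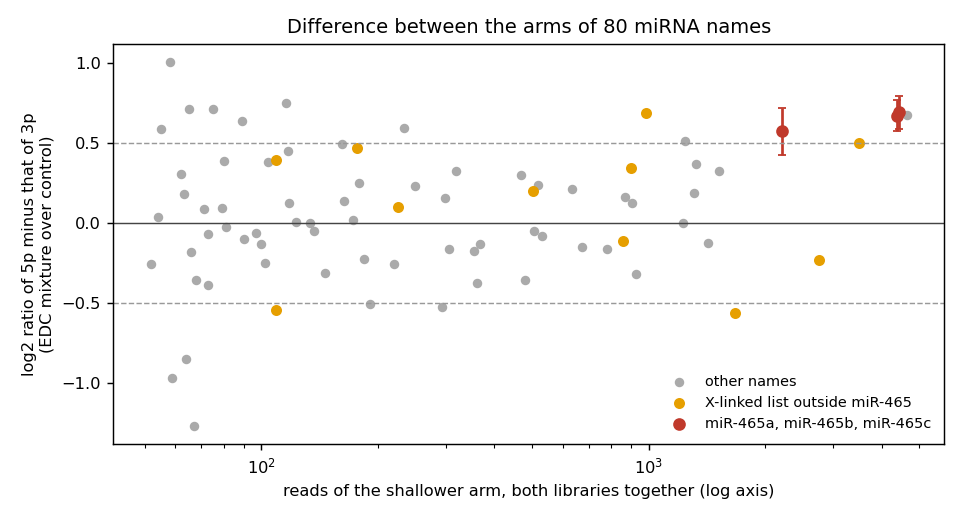
Difference between the arms (log2 ratio of 5p minus that of 3p, exposed over control mice) against the reads of the shallower arm in both libraries (log axis) for 80 miRNA names, with exact 95% intervals for the miR-465 names (red). miR-465a, miR-465b and miR-465c lie at 0.57, 0.69 and 0.67, among the deepest names; other X-linked names are orange.

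In the 5p arm, where the copies can be told apart, the make-up of the group shifted slightly. Of the 5p reads of miR-465a, miR-465b and miR-465c, 15.6% came from miR-465a in exposed mice (15.1 to 16.1) and 17.8% in control mice (17.3 to 18.4). miR-465b gave 35.5% in exposed mice (34.9 to 36.2) and 33.5% in control mice (32.8 to 34.2). The share of miR-465c was 48.9% in exposed mice (48.2 to 49.6) and 48.7% in control mice (48.0 to 49.4), and here the intervals overlap. For each read of miR-465a-5p there were 2.28 of miR-465b-5p in exposed mice and 1.88 in control mice, a log2 difference of 0.28 (0.19 to 0.37). Reads of miR-465c-5p for each of miR-465a-5p were 3.13 in exposed mice and 2.74 in control mice (0.20, 0.11 to 0.28). Set against miR-465b-5p instead, miR-465c-5p was slightly lower in exposed mice (−0.08, −0.15 to −0.02). Per hairpin, with 1 hairpin for miR-465a and 2 each for miR-465b and miR-465c, the 5p reads were 2961, 3374 and 4641 in exposed mice and 3239, 3045 and 4430 in control mice. The single hairpin of miR-465d, by contrast, gave 6 reads in exposed and 7 in control mice, although it lies in the same row of repeats.

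In the 3p arm the split among the rows followed the number of hairpins. Of the 3p reads of miR-465a, miR-465b and miR-465c, miR-465a-3p held 19.2% in exposed mice (18.1 to 20.4) and 20.6% in control mice (19.7 to 21.6), beside 1 hairpin of 5, or 20%. miR-465b-3p held 41.2% in exposed mice (39.7 to 42.6) and 39.6% in control mice (38.4 to 40.8), beside 40% of the hairpins. For miR-465c-3p it was 39.6% in exposed mice (38.2 to 41.1) and 39.8% in control mice (38.6 to 40.9), also beside 40%. All 6 of these intervals hold the share of the hairpins, and none of the 3 intervals of the 5p arm does so in either library. A read counted at each of 2 identical hairpins would make every count of such a row even, but miR-465c-3p had 1735 reads in exposed mice and miR-465b-3p had 2625 in control mice. Over all miRNAs with 2 places in RefSeq and 20 reads or more, even counts were 57.7% of 26 in exposed mice and 40.7% of 27 in control mice. For those with 1 place they were 46.6% of 251 in exposed mice and 51.0% of 263 in control mice. RefSeq lists only 1 place for miR-465b-5p and for miR-465c-3p, although each has 2 hairpins. The 2 classes therefore do not cleanly separate miRNAs with 1 hairpin from those with 2. How the reads were distributed over the copies was not tested further.

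**Figure D5:**
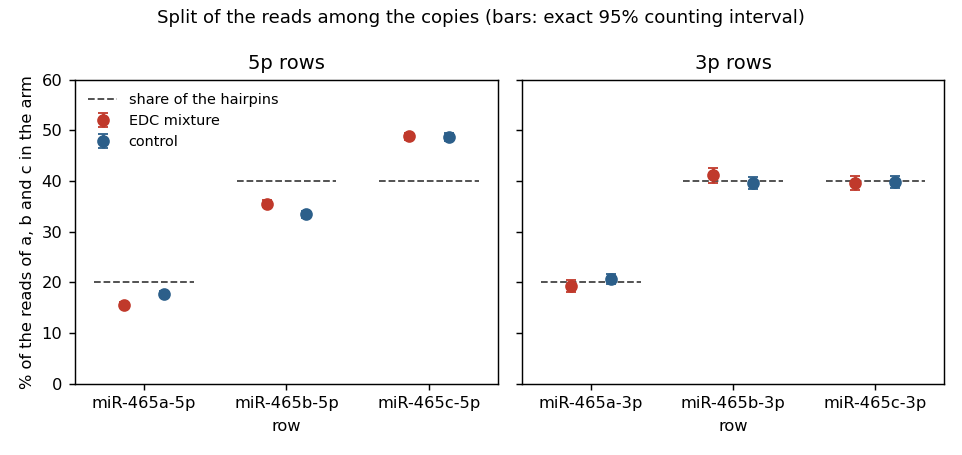
Share (in %) of the reads of miR-465a, miR-465b and miR-465c held by each copy in the 5p arm (left) and the 3p arm (right), in exposed (red) and control mice (blue), with exact 95% intervals; dashed lines give the share of the hairpins (20%, 40% and 40%). The 3p rows, identical in sequence, lie on these lines, and the 5p rows do not.

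The miR-465 group was set beside its X-linked neighbours, a list of miRNAs between Slitrk2 and Fmr1. It held 21.4% of the reads of this list in exposed mice and 20.1% in control mice. Of the 28 other members tested, 0 were called higher and 1 lower, and at any size 5 were higher and 6 lower, with a median log2 ratio of −0.05. Among all tested miRNAs, 0.620% were called higher and 2.27% lower. At any size these shares were 8.26% and 9.30%, and the median was −0.04. The shares at any size depend on depth here too and are not read as an excess. The most abundant of the 28, miR-881-3p, had 23470 reads in exposed mice and 27409 in control mice (−0.04, −0.06 to −0.01), and miR-741-3p had 11169 in exposed mice and 13474 in control mice (−0.08). miR-878-3p was the one called lower, with 1318 reads in exposed mice and 2316 in control mice (−0.63, −0.73 to −0.53, exact test, adjusted p = 1.12e-35). The other extreme were miR-471-3p, with 1122 reads in exposed mice and 940 in control mice (0.44, 0.32 to 0.57), and miR-742-3p at 0.46 (−0.37 to 1.30) on 29 reads in exposed and 24 in control mice. At the low end, miR-883a-5p lay at −0.60 (−1.20 to −0.02) on 40 reads in exposed and 69 in control mice and did not pass the test.

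The more abundant arm of most neighbours was the 3p arm, unlike in miR-465a, miR-465b and miR-465c. Of the 11 other X-linked names with 50 reads or more in each arm, miR-470 alone had more 5p than 3p reads with the libraries added, whereas miR-465a, miR-465b and miR-465c had more in each library. miR-878 had 1556 5p and 1318 3p reads in exposed mice, against 1936 5p and 2316 3p reads in control mice, so that its more abundant arm differed between them. The 5p arm had the higher ratio in 7 of the 11 and the 3p arm in 4. The median difference between the arms was 0.20 over these 11 names and 0.01 over 66 names outside the list. By row, the neighbours had a median log2 ratio of 0.06 over 13 5p rows, with 8 above 0 and 5 below. Over 15 3p rows of the neighbours it was −0.08, with 4 above 0 and 11 below. The widest gap in the direction of miR-465 was that of miR-743a, with 4346 3p reads in exposed mice and 6002 in control mice. In miR-878 the arms were 0.50 apart (0.36 to 0.64). miR-471 went the other way (−0.56, −0.75 to −0.37). miR-470-5p, from the nearest hairpin, had 11822 reads in exposed mice and 12338 in control mice (0.12, 0.09 to 0.16), and miR-201-5p, from the next one on the other side, had 312 in exposed mice and 384 in control mice (−0.11, −0.33 to 0.11).

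Over the 2 libraries, the miRNAs with 500 reads or more whose log2 ratio lay nearest to the 5p sum were miR-184-3p (0.25), miR-22-3p (0.23) and miR-320-3p (0.23). Nearest to the 3p sum were miR-25-3p of the miR-106b cluster (−0.40), miR-17-5p of the miR-17 cluster (−0.39) and miR-194-5p (−0.39). With 2 libraries this likeness is 1 ratio each and was not tested.

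Markers of the cells in a testis were read beside these values. The germ cell miRNAs miR-34c-5p, miR-34b-5p and miR-449a-5p were all abundant, with 56741 reads in exposed mice and 61246 in control mice together (log2 ratio 0.08). Their ratios differed, from −0.08 for miR-34c-5p to 0.60 for miR-34b-5p, which was called higher. The Sertoli cell arms of miR-202 summed to 2403 reads in exposed mice and 2407 in control mice (0.18), with miR-202-5p at 0.21 and miR-202-3p at 0. Of the striated muscle miRNAs, miR-1a-3p was at 0.43 with 842 reads in exposed mice and 712 in control mice, whereas miR-133a-3p was called lower at −0.69 with 56 reads in exposed mice and 103 in control mice. Their sum (0.33) is mostly miR-1a-3p. Smooth muscle (miR-143-3p and miR-145a-5p) was at 0.13, endothelium (miR-126a arms) at −0.16, red blood cells (miR-451a and miR-144-3p) at 0.36, and white blood cells (miR-223-3p and the arms of miR-142a) at 0.08 (164 reads in exposed and 176 in control mice). miR-122-5p of the liver had 1 read in exposed mice and 0 in control mice. Their part in the miR-465 values was not tested. The libraries are of whole testis, so the cell that a miR-465 read came from was not measured.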

How the data were processed

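Testis RNA was pooled within each group and sequenced as 1 small RNA library per group (single-end, 65 nucleotides). The authors trimmed adapters (cutadapt, after FastQC), discarded reads under 12 nucleotides and aligned the rest to mm10 with bowtie, allowing 3 mismatches and retaining every alignment of the best class. They counted reads on miRBase v21 with HTSeq and deposited whole read counts per mature miRNA without normalisation. Versions of these tools are not stated. No read was set aside as not unique. The methods do not say how a read with several best alignments was counted. Counting it at each of 2 identical hairpins would give even counts, whereas miR-465c-3p had 1735 reads in exposed mice. Ambiguous reads (2595 in exposed mice, 0.515%, and 2919 in control mice, 0.528%) name no miRNA and were left out.

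Size factors followed the median of ratios. Exact binomial tests (2-sided) were run on all 484 miRNAs with 10 or more reads. Sums of copies and differences between arms have exact intervals (Clopper-Pearson, or conditional odds ratio) and no p. The scripts were tested on simulated counts with counting error only, which checks the code and not the spread between animals or libraries. Alternatives covered scaling, pseudocount, minimum of reads, size minimum, hairpin number, collapsed copies and edgeR's exact test. A count of 0 allows up to 3 reads, or 0.000598% in exposed and 0.000545% in control mice. No molecular identifiers are named in the methods, so reads may be PCR copies and intervals cover counting error only.

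The miRNAs named are the 8 members, X-linked neighbours with the most reads or the largest and smallest ratios, the next hairpins, the 3 nearest in ratio to each sum, and cell markers. miR-34b, miR-743a, miR-878 and miR-471 were named for their arms after their values were seen. Members and lists were chosen with earlier results of these data known. Sequences and positions are those of RefSeq GRCm38.p6. GENCODE M21 gave host genes and strand. Python 3.11.15, scipy 1.17.1, R 4.3.3 and edgeR 4.0.16 were used.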

Additional observations from a re-analysis of the deposited data

How the results depend on the processing

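The sum of the 5p rows stayed above 0 and that of the 3p rows below 0 under every alternative run, from 0.20 to 0.28 for 5p and from −0.46 to −0.36 for 3p. The 5p sum left its interval only with scaling by total reads (0.20). The 5p share was 80.7% in exposed mice when reads were divided by the number of hairpins, and with miR-465a alone it was 77.9% in exposed mice and 70.3% in control mice. The arms were 0.57 apart with miR-465a alone, and leaving out miR-465d, chosen after seeing the data, moved no value past its interval. With 200 reads or more per arm, 9 names had arms 0.5 or more apart (23.1% of 39, against 20 of 80 with 50 reads).

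The count of 1 member called was 0 with scaling by TMM, where miR-465a-3p lay at −0.49, 0 with a size minimum of 1.0, 0 when the copies of an arm were collapsed into 1 feature, and 0 with edgeR's exact test at an adjusted or, added later, at an unadjusted p. In edgeR's test the dispersion contained the group difference, so the loss of the call there decides nothing. With no size minimum the count was 5, beside 85 of all 484 tested, and this count depends on depth. Dividing reads by the number of hairpins moved 14 of 16 shares of single copies, by construction, with miR-465a-5p at 27.0% in exposed and 30.2% in control mice. No paired analysis was possible because each group has 1 library.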
